A study of Mus musculus with 4 samples.

Results

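R-spondins are secreted proteins that raise the response of a cell to Wnt. The genes described here are the 4 ligands Rspo1, Rspo2, Rspo3 and Rspo4, their receptors Lgr4, Lgr5 and Lgr6, and the membrane ubiquitin ligases Rnf43 and Znrf3. They were chosen by name, and all 9 had a row in the count matrices, among 20719 genes in all. Rnf43 and Znrf3 tag Frizzled receptors and the co-receptor Lrp6 for removal from the cell surface, and so lower the Wnt response. An R-spondin bound at once to an Lgr receptor and to one of the ligases takes the ligase off the surface, which leaves more Frizzled in place. In the embryonic head, the roof plate along the dorsal midline and the cortical hem at the medial edge of the cortex are known sources of Wnt and BMP signals.

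The data were single-cell RNA counts of dissociated heads of E10.5 mouse embryos, in 2 Apcdd1+/- libraries and 2 wild-type (WT) libraries. Apcdd1 encodes a membrane protein that inhibits Wnt signalling. Whole heads had been dissected, although the tissue is labelled as embryonic brain, so mesenchyme, surface epithelium, blood and nerve ganglia were present. The heads were stored overnight in a preservation solution before dissociation, and dead cells were sorted out with DAPI. The number of embryos or litters behind a library, the sex, the strain and the design of the Apcdd1 allele were not given. P-values therefore speak only for these libraries, whose spread may in part be technical. The fits share part of the error estimate across genes, so the error of a gene can be smaller than its own spread between libraries.

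After filtering, 24259 of 25074 barcodes were kept, 9501 and 5544 in the Apcdd1+/- libraries against 6258 and 2956 in the WT libraries. The median depth per kept cell was 9118 and 8934.5 UMIs (unique molecular identifiers, 1 per captured RNA molecule) in Apcdd1+/-, against 11506 and 17133.5 in WT, so depth differed with genotype. Of 25065 bead barcode sequences, 100 occurred in more than 1 library. Levels are given as UMIs per 10000 UMIs of a cell, averaged over the cells of a library, with the SD over n = 4 libraries. Apcdd1 itself stood at 0.813 and 0.520 in the Apcdd1+/- libraries, against 0.703 and 0.644 in the WT libraries, so its level does not separate the labels. Its log2 difference, Apcdd1+/- minus WT, was 0.08 with a 95% interval of -0.45 to 0.61, and the labels are used as given.

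Cells were placed in 10 broad classes and 23 finer gates by marker genes alone, none of them an R-spondin, Lgr or ligase gene. The gate names stand for cells that carry those markers (roof plate-like and so on), not for regions seen in tissue. As a check of the roof plate or choroid plexus gate, Wnt1, a roof plate gene that was no gate gene, stood at 0.299 to 0.568 in the gate of the 4 libraries, against 0.0130 to 0.0382 in other cells. Ttr, a choroid plexus gene and a gate gene, was at 0 and 43.3 in the Apcdd1+/- libraries and at 1.10 and 8.55 in the WT libraries, a wide spread within that gate. Gates within the neural tube were set against all other neural progenitor cells, and the rest against all other kept cells, with edgeR on summed UMIs and Benjamini-Hochberg adjusted p over all genes in each fit. The roof plate, floor plate and neural retina gates also took cells that reached no broad class. The cells they were set against, called other progenitors below, were all classed as neural progenitors, so these comparisons mix class with region. Set against all other kept cells instead, 54 of the 55 calls of the neural tube gates stayed.

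The heat map gives the mean level of each gene by gate. Over the 28 gates with at least 20 cells in every library, 192 pairs of a gene and a gate could be tested. These gates include broad classes and their own finer gates, so they share cells and are not separate places. In 28 pairs the gene was higher in the gate than in the cells it was set against, where 14% of all gene and gate pairs were called higher, and in 92 pairs it was lower, where 16.1% of all were called lower. Each of the 3 abundant ligands was lower in most gates. Rspo1 was called higher in 6 gates and lower in 20, Rspo2 in 4 and 22, and Rspo3 in 5 and 23. Lgr4 was called higher in 5 gates and lower in 8, Lgr5 in 3 and 7, and Znrf3 in 2 and 8. Rspo4, with 71 UMIs in all, was too rare to be tested in any gate, and Lgr6 and Rnf43 could be tested in 11 and 13 gates.

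**Figure D1:**
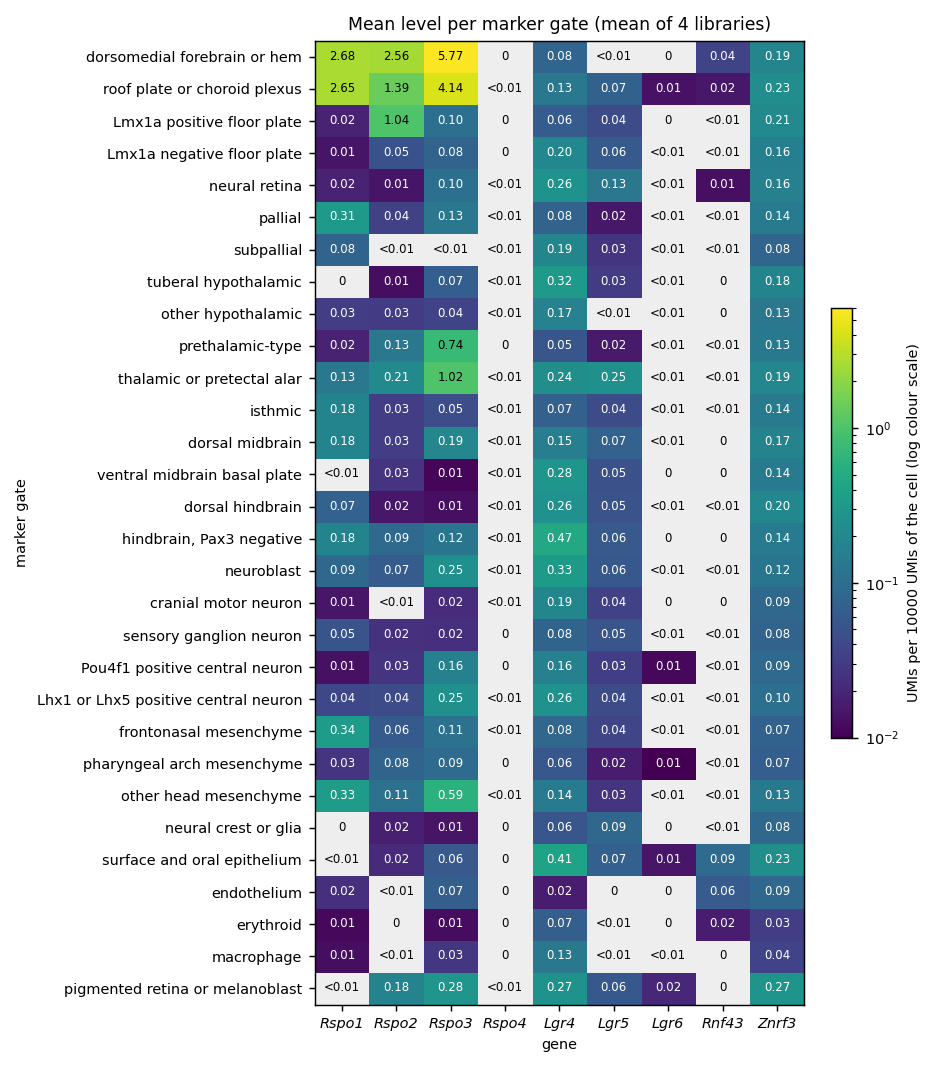
Mean level of the 9 genes (columns) in each of 30 marker gates (rows), in UMIs per 10000 UMIs of the cell, as the mean over 4 libraries; the colour scale is logarithmic and grey cells are under 0.01. Rspo1, Rspo2 and Rspo3 peak in the hem and roof plate gates, Rspo2 also stands at 1.04 in the Lmx1a positive floor plate gate, and Lgr5 is highest in the thalamic or pretectal alar gate.

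All 3 abundant ligands had their highest levels at the dorsal midline. The gate of roof plate or choroid plexus cells held 246 cells and 1.01% of all kept cells, but 14.1% of all Rspo1 UMIs, 13.5% of Rspo2 UMIs and 12.5% of Rspo3 UMIs. The gate of dorsomedial forebrain or hem cells held 92 cells, 0.379% of all, and 4.62%, 7.43% and 5.39% of the UMIs of these genes in the same order.

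Rspo1 stood at 1.72 and 3.19 in the roof plate gate of the Apcdd1+/- libraries, against 3.25 and 2.46 in the WT libraries. The mean of 2.65 ± 0.72 in the gate compared with 0.169 ± 0.029 in other progenitors (SD, n = 4 each), and the lowest library of the gate lay above the highest of the other cells. That is a log2 difference of 3.79 (SE 0.11, edgeR adjusted p = 5.8e-73).

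Rspo2 stood at 1.13 and 1.42 in the roof plate gate of the Apcdd1+/- libraries, against 1.82 and 1.20 in the WT libraries. Its mean was 1.39 ± 0.31 in the gate and 0.12 ± 0.0045 in other progenitors (SD, n = 4 each), a log2 difference of 3.48 (SE 0.15, edgeR adjusted p = 2.2e-50). All 4 libraries were higher in the gate.

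Rspo3 stood at 4.77 and 4.21 in the roof plate gate of the Apcdd1+/- libraries, against 4.33 and 3.25 in the WT libraries. Its mean was 4.14 ± 0.64 in the gate and 0.399 ± 0.056 in other progenitors (SD, n = 4 each), a log2 difference of 3.23 (SE 0.08, edgeR adjusted p = 1.6e-78). In this fit 3 of 6 tested members were higher and 0 lower, where 9.03% of all genes were called higher and 9.27% lower. Lgr4, Lgr5 and Znrf3 did not pass there, with log2 differences of -0.57 (SE 0.26), -0.15 (SE 0.40) and 0.39 (SE 0.23).

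The ligands were also high in the hem gate, which held fewer cells. Rspo1 averaged 2.68 ± 0.78, Rspo2 2.56 ± 0.35 and Rspo3 5.77 ± 1.76 in the gate, against 0.197 ± 0.032, 0.127 ± 0.010 and 0.423 ± 0.054 in other progenitors (SD, n = 4). Because 1 WT library held 7 hem cells, the gate fell under the minimum of 20 cells, and it was fitted only under a minimum of 5 cells added after the data were seen. In that fit the log2 differences were 3.47 (SE 0.20), 4.07 (SE 0.23) and 3.46 (SE 0.12), so 3 of 6 tested members were higher and 0 lower, where 1.19% of all genes were called higher and 1.48% lower. For Rspo2 the 4 libraries of the hem gate (2.11 to 2.93) lay above the 4 of the roof plate gate (1.13 to 1.82), whereas for Rspo1 and Rspo3 the ranges of the 2 gates overlapped. For each of the 3 ligands, the third gate in the order of levels was lower, and for Rspo1 and Rspo3 its range lay apart from that of the roof plate gate.

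**Figure D2:**
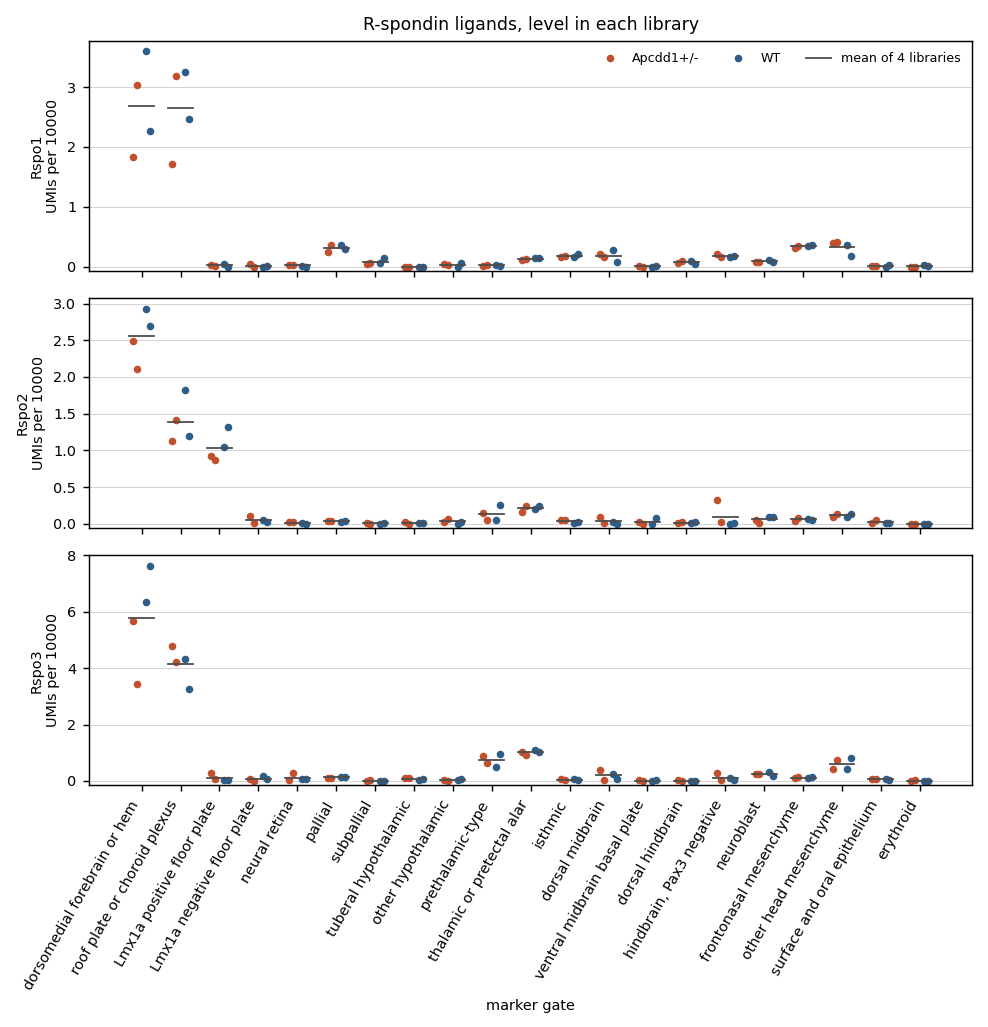
Level of Rspo1, Rspo2 and Rspo3 (rows, in UMIs per 10000, linear axes) in 21 marker gates, with 1 point per library (Apcdd1+/- left, WT right in each gate) and a line at the mean of 4 libraries. In the hem and roof plate gates every library is above 1.1 for each gene, and outside them only Rspo2 in the Lmx1a positive floor plate gate and Rspo3 in the thalamic or pretectal alar gate average above 1.

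UMIs of more than 1 ligand were found in the same midline cells. After each cell was thinned to 3000 UMIs, 71.8% ± 5.5 of roof plate cells had a UMI of at least 1 of Rspo1, Rspo2 and Rspo3, 34.4% ± 4.2 of at least 2 of them and 10.7% ± 2.8 of all 3 (SD, n = 4, 239 cells). In the hem gate the shares were 67.9% ± 5.2, 44.9% ± 12.4 and 13.9% ± 9.4 (90 cells). Erythroid cells, which should lack these genes, gave 0.758% ± 1.5 for at least 1 ligand at the same thinned depth (128 cells), and their median depth before thinning was 15357 to 29230.5 UMIs, against 7974.5 to 18766 in the roof plate gate. Cells below 3000 UMIs were left out, 7 of the roof plate gate, 2 of the hem gate and 9 erythroid cells. Within the roof plate gate, Rspo2 averaged 2.05 ± 0.35 in the 158 cells with a Rspo3 UMI and 0.274 ± 0.29 in the 88 cells without, higher in 4 of 4 libraries. Rspo1 averaged 3.02 ± 1.2 in cells with a Rspo3 UMI and 1.80 ± 0.73 in cells without, which was higher in 3 of 4 libraries, and in WT replicate 2 it stood at 2.28 with and 2.64 without. In Apcdd1+/- replicate 1 the values of Rspo1 were nearly level, at 1.73 with and 1.69 without. A UMI of Lgr4, Lgr5 or Lgr6 was found in 4.64% ± 2.6 of roof plate cells thinned to 3000 UMIs. Erythroid cells gave 1.52% ± 1.9 at that depth. After thinning to 5000 UMIs the shares were 6.91% ± 1.7 and 6.68% ± 6.9. The erythroid share varied widely between libraries, so whether the roof plate share exceeds background cannot be told. In the hem gate 0 of 90 cells had an Lgr UMI at 3000 UMIs, which allows up to 3.33% of cells with one at that depth. At 5000 UMIs 5.29% ± 6.2 of 85 hem cells had one.

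At the ventral midline the ligands differed. Cells of the Lmx1a positive floor plate gate, where midbrain dopamine neurons arise, were high in Rspo2 and low in Rspo1 and Rspo3. Rspo2 stood at 0.918 and 0.865 in the Apcdd1+/- libraries and at 1.04 and 1.32 in the WT libraries, and its mean of 1.04 ± 0.20 compared with 0.134 ± 0.0055 in other progenitors (SD, n = 4 each). All 4 libraries were higher in the gate, by a log2 difference of 2.81 (SE 0.17, edgeR adjusted p = 1.1e-38).

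In the same gate Rspo1 averaged 0.019 ± 0.017 and other progenitors 0.218 ± 0.038, a log2 difference of -2.37 (SE 0.35, edgeR adjusted p = 4.0e-09). Rspo3 averaged 0.103 ± 0.12 in the gate and 0.466 ± 0.063 in other progenitors, a log2 difference of -2.48 (SE 0.24, edgeR adjusted p = 9.9e-19). The spread of Rspo3 came from 1 library, with 24 UMIs in Apcdd1+/- replicate 1 and 1 to 3 in each of the other 3. Without that library its difference was -4.17, and without cells over 2 times the median UMI count the difference of Rspo1 was -4.24. Of 249 thinned cells, 22.8% ± 5.3 had a UMI of an R-spondin and 0 had UMIs of 2 of them, which allows up to 1.2% of cells with UMIs of 2 at that depth and sets no limit on cells that express 2. Lgr4 was lower as well, with a log2 difference of -1.52 (SE 0.34, edgeR adjusted p = 0.00017), so 1 of 6 tested members was higher and 3 lower, where 7.67% of all genes were called higher and 8.1% lower. In the Lmx1a negative floor plate gate Rspo2 was lower than in other progenitors, with a log2 difference of -1.61 (SE 0.33, edgeR adjusted p = 0.00011), and averaged 0.05. There all 3 abundant ligands were lower and 0 members higher, where 9.73% of all genes were called higher and 9.88% lower.

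The diencephalon was the next place of high Rspo3. In the thalamic or pretectal alar gate Rspo3 stood at 1.04 and 0.915 in the Apcdd1+/- libraries, against 1.11 and 1.01 in the WT libraries, and this gate held 18.8% of all Rspo3 UMIs in 6.17% of the cells. Its mean of 1.02 ± 0.082 compared with 0.380 ± 0.068 in other progenitors (SD, n = 4 each), a log2 difference of 1.5 (SE 0.06, edgeR adjusted p = 2.2e-16). Rspo2 was higher there too, at 0.210 ± 0.041 against 0.135 ± 0.013 in other progenitors, and Rspo1 was lower, at 0.131 ± 0.020 against 0.228 ± 0.039. Their log2 differences were 0.76 (SE 0.13, edgeR adjusted p = 8.8e-05) and -0.59 (SE 0.10, edgeR adjusted p = 9.9e-05).

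In the prethalamic-type gate Rspo3 stood at 0.899 and 0.631 in the Apcdd1+/- libraries and at 0.506 and 0.942 in the WT libraries. The genotypes overlapped, and the mean of 0.745 ± 0.21 exceeded the 0.446 ± 0.060 of other progenitors in 4 of 4 libraries, with a log2 difference of 1.03 (SE 0.09, edgeR adjusted p = 9.1e-19). Without cells over 2 times the median UMI count that difference was 0.51 (adjusted p = 0.0005). Rspo1 was lower, at 0.019 ± 0.010 in the gate and 0.225 ± 0.037 in other progenitors. In this fit 1 member was higher and 3 lower of 6 tested, where 4.33% of all genes were called higher and 5.08% lower.

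Rspo1 was also higher in mesenchyme and in the pallial gate. In frontonasal mesenchyme it stood at 0.313 and 0.339 in the Apcdd1+/- libraries and at 0.341 and 0.367 in the WT libraries, against 0.194 ± 0.027 in all other cells (SD, n = 4), with a log2 difference of 0.99 (SE 0.08, edgeR adjusted p = 7.4e-11). The gate held 18.9% of all Rspo1 UMIs in 7.99% of the cells. Its cells were deep, with library medians of 13955 to 25643 UMIs, against 8934.5 to 17133.5 over all kept cells. Part of that excess of UMIs over cells is therefore depth. Rspo1 was also higher in the remaining head mesenchyme, with 0.82 (SE 0.13, adjusted p = 4.1e-06 by edgeR). Rspo3 was lower in the frontonasal gate, at -1.89 (SE 0.09, edgeR adjusted p = 6.0e-15), and higher in the remaining head mesenchyme, at 0.56 (SE 0.14, edgeR adjusted p = 0.0012). Of all genes, 28.5% were called higher and 29.9% lower in the frontonasal gate, and 19.7% higher in the remaining head mesenchyme. That higher value was 0.37 without Apcdd1+/- replicate 2 (adjusted p = 0.079) and 0.35 without WT replicate 2 (adjusted p = 0.022), and it missed the threshold by DESeq2 (adjusted p = 0.21). Over mesenchyme as a class, 1 of 8 tested members was higher and 6 lower, where 30.4% of all genes were called higher and 30.7% lower. Of the 6, Rnf43 missed the threshold without either WT library, by DESeq2 (adjusted p = 0.08) and without cells over 2 times the median UMI count (adjusted p = 0.096). In the last setting Lgr5 missed it too, at -0.63 (adjusted p = 0.096) in place of -1.15.

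In the pallial gate, the progenitors of the cerebral cortex, Rspo1 stood at 0.247 and 0.363 in the Apcdd1+/- libraries, against 0.359 and 0.285 in the WT libraries. Its mean of 0.314 ± 0.057 exceeded the 0.202 ± 0.037 of other progenitors in 4 of 4 libraries, with a log2 difference of 0.57 (SE 0.09, edgeR adjusted p = 3.5e-06). Rspo2 and Rspo3 were lower there, with log2 differences of -2.30 (SE 0.15) and -2.14 (SE 0.10). Lgr4 and Lgr5 were lower in the same cells, at -1.38 (SE 0.13) and -2.15 (SE 0.22). Thus 1 of 6 tested members was higher and 4 lower, where 14.4% of all genes were called higher and 12.9% lower.

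Some of the R-spondins, but not all, were nearly absent from several progenitor gates. In the 407 subpallial cells, progenitors of the basal ganglia, Rspo3 had 2 UMIs and Rspo2 had 3, so Rspo3 averaged 0.0068 ± 0.0084 in the gate and 0.477 ± 0.066 in other progenitors (SD, n = 4 each). In the dorsal hindbrain Rspo3 averaged 0.013 ± 0.011, and in the ventral midbrain basal plate 0.011 ± 0.014, against 0.487 ± 0.054 and 0.467 ± 0.064 in the progenitors each was set against. Rspo1 had 0 UMIs in the 171 tuberal hypothalamic cells, and with 3 UMIs over the gate as the floor its summed level there was at least 19.1-fold lower than the 0.222 UMIs per 10000 of other progenitors. Rspo2 had 0 UMIs in the 137 erythroid cells, at least 11.3-fold lower by the same floor than the 0.117 of all other cells. These bounds cover counting error alone. Other ligands were found in some of the progenitor gates named here. Rspo1 averaged 0.079 ± 0.048 in the subpallial gate and 0.074 ± 0.022 in the dorsal hindbrain. Rspo3 averaged 0.068 ± 0.037 in the tuberal hypothalamic gate.

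Rspo4, known in people for its part in nail growth, was the rare ligand. Of its 71 UMIs, 25 lay in mesenchyme, which held 12.7% of the cells, and 19 of these in the frontonasal gate. Mesenchyme cells were deep too, with library medians of 12295 to 22104 UMIs, so their share of all UMIs exceeded their share of cells. Rspo4 passed the filter on low counts in none of the main fits of gates. Without that filter it was higher in mesenchyme, with a log2 difference of 1.59 (SE 0.56, edgeR adjusted p = 0.018), and in the frontonasal gate, with 1.68 (SE 0.61, adjusted p = 0.015).

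Among the receptors, Lgr4 was called higher in the most gates. It had its highest level in the Pax3-negative hindbrain gate, at 0.510 and 0.360 in the Apcdd1+/- libraries, against 0.445 and 0.567 in the WT libraries. The mean of 0.470 ± 0.089 compared with 0.194 ± 0.024 in other progenitors (SD, n = 4 each), a log2 difference of 1.26 (SE 0.20, edgeR adjusted p = 6.9e-08). In this fit 1 of 6 tested members was higher and 2 lower, where 2.87% of all genes were called higher and 3.62% lower.

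Surface and oral epithelium came next for Lgr4, at 0.501 and 0.414 in the Apcdd1+/- libraries and at 0.309 and 0.414 in the WT libraries. Its mean of 0.409 ± 0.079 compared with 0.2 ± 0.027 in all other cells, a log2 difference of 1.20 (SE 0.10, edgeR adjusted p = 3.1e-11). Neuroblasts, cells on the way from progenitor to neuron, followed at 0.325 ± 0.050 in the gate and 0.2 ± 0.029 in all other cells, with a log2 difference of 0.77 (SE 0.12, edgeR adjusted p = 1.1e-05), where 15.3% of all genes were called higher in neuroblasts. The ranges of these gates overlapped, so their order is not settled. Lgr4 also passed in the thalamic or pretectal gate at 0.42 (SE 0.12, adjusted p = 0.021) and in the dorsal hindbrain at 0.46 (SE 0.16, adjusted p = 0.039), each in 3 of 4 libraries, and 6.04% of all genes were called higher in the dorsal hindbrain. The first fell to 0.20 without Apcdd1+/- replicate 1 (adjusted p = 0.51) and missed the threshold without either WT library and by DESeq2, and the second fell to 0.22 without Apcdd1+/- replicate 2 (adjusted p = 0.66) and missed it without WT replicate 2, by DESeq2, without the filter on low counts, without cells over 2 times the median UMI count and with stricter gates. Both missed it without the library block.

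Lgr4 was lower in the isthmic and prethalamic-type gates. In the isthmic gate, the boundary of midbrain and hindbrain, it averaged 0.071 ± 0.025 and other progenitors 0.209 ± 0.027, a log2 difference of -1.35 (SE 0.18, edgeR adjusted p = 1.1e-06). Of all genes, 4.87% were called lower in that gate. The prethalamic-type gate gave -1.59 (SE 0.21, adjusted p = 3.2e-09 by edgeR), and all 4 libraries, at 0.043 to 0.079, lay below the 0.186 to 0.249 of other progenitors.

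Lgr5, best known as a marker of intestinal stem cells, had its highest level in the diencephalon. In the thalamic or pretectal alar gate it stood at 0.258 and 0.235 in the Apcdd1+/- libraries, against 0.329 and 0.180 in the WT libraries, and 28.0% of all its UMIs lay in this gate. The mean of 0.25 ± 0.062 compared with 0.0488 ± 0.0082 in other progenitors (SD, n = 4 each), a log2 difference of 2.48 (SE 0.17, edgeR adjusted p = 4.5e-12). With Rspo3, Rspo2 and Lgr4, 4 of 6 tested members were higher in this gate and 1 lower, where 3.66% of all genes were called higher and 4.29% lower.

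In the neural retina gate Lgr5 stood at 0.195 and 0.096 in the Apcdd1+/- libraries and at 0.044 and 0.176 in the WT libraries. The log2 difference of 1.04 (SE 0.28, edgeR adjusted p = 0.0049) missed the threshold without Apcdd1+/- replicate 1 (0.80, adjusted p = 0.15) or WT replicate 2 (0.77, adjusted p = 0.16), by DESeq2 (0.98, adjusted p = 0.068) and without cells over 2 times the median UMI count (0.65, adjusted p = 0.25). In that gate 6.7% of all genes were called higher. Lgr5 was lower than in other progenitors in the pallial, prethalamic-type and other hypothalamic gates, by log2 differences of -2.15 (SE 0.22), -1.63 (SE 0.37) and -2.97 (SE 0.57). The last was -4.53 without WT replicate 2, in a gate where 3.63% of all genes were called lower. A protein-coding gene on the opposite strand within Lgr5, A930009A15Rik, had 90 UMIs in all, against 1508 of Lgr5.

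Lgr6 had 115 UMIs in all. In surface and oral epithelium it had 19 UMIs in 17 of 792 cells and averaged 0.0149 ± 0.0068, against 0.0036 ± 0.0015 in all other cells (SD, n = 4), higher in 4 of 4 libraries. That is a log2 difference of 2.13 (SE 0.52, edgeR adjusted p = 0.001).

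Of the ligases, Rnf43 had its highest mean in epithelium. Endothelium followed, at 0.0624 ± 0.10 (SD, n = 4) on 9 UMIs in 2 of 219 cells, with 0.215 in Apcdd1+/- replicate 2 and 0 in 2 libraries. The ranges of these gates overlapped, so their order is not settled, and endothelium fell under the minimum of 20 cells. With the minimum of 5 cells, Rnf43 was higher in endothelium than in all other cells, by a log2 difference of 2.37 (SE 0.80, edgeR adjusted p = 0.0088), where 19.7% of all genes were called higher. Surface and oral epithelium held 88 of its 206 UMIs in 3.26% of the cells. It stood at 0.053 and 0.092 in the Apcdd1+/- libraries and at 0.12 and 0.110 in the WT libraries, and its mean of 0.0934 ± 0.030 compared with 0.0048 ± 0.0017 in all other cells (SD, n = 4 each). Epithelium exceeded them by a log2 difference of 4.12 (SE 0.36, edgeR adjusted p = 3.0e-11). With Lgr4, Lgr6 and Znrf3, 4 of 8 tested members were higher in epithelium, and the 3 abundant ligands were lower, where 22.3% of all genes were called higher and 25.6% lower. Rnf43 also passed in erythroid cells on 5 UMIs, all in the Apcdd1+/- libraries, with a log2 difference of 2.35 (SE 1.00, adjusted p = 0.044) that missed the threshold without either Apcdd1+/- library, without WT replicate 1, by DESeq2, without the filter and without cells over 2 times the median UMI count. Of all genes, 15.2% were called higher in erythroid cells.

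Znrf3 was found in nearly every gate. It stood in epithelium at 0.228 and 0.282 in the Apcdd1+/- libraries, against 0.160 and 0.266 in the WT libraries, and exceeded the other cells by a log2 difference of 0.50 (SE 0.13, edgeR adjusted p = 0.0016). It was lower in neurons, at -0.71 (SE 0.14, adjusted p = 0.0006), in mesenchyme, at -0.68 (SE 0.14, adjusted p = 0.00086), and in the subpallial gate, at -0.97 (SE 0.23, adjusted p = 0.0019). Of all genes, 33% were called lower in neurons and 4.25% in the subpallial gate. Over neural progenitors as a class the summed counts gave a log2 difference of 0.41 (SE 0.07, adjusted p = 0.00015), where 30.9% of all genes were called higher. The mean of per-cell levels did not show it, at 0.168 ± 0.020 in progenitors and 0.173 ± 0.038 in other cells, with 2 of 4 libraries higher, so the direction in progenitors differed between the summed and the per-cell scale.

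**Figure D3:**
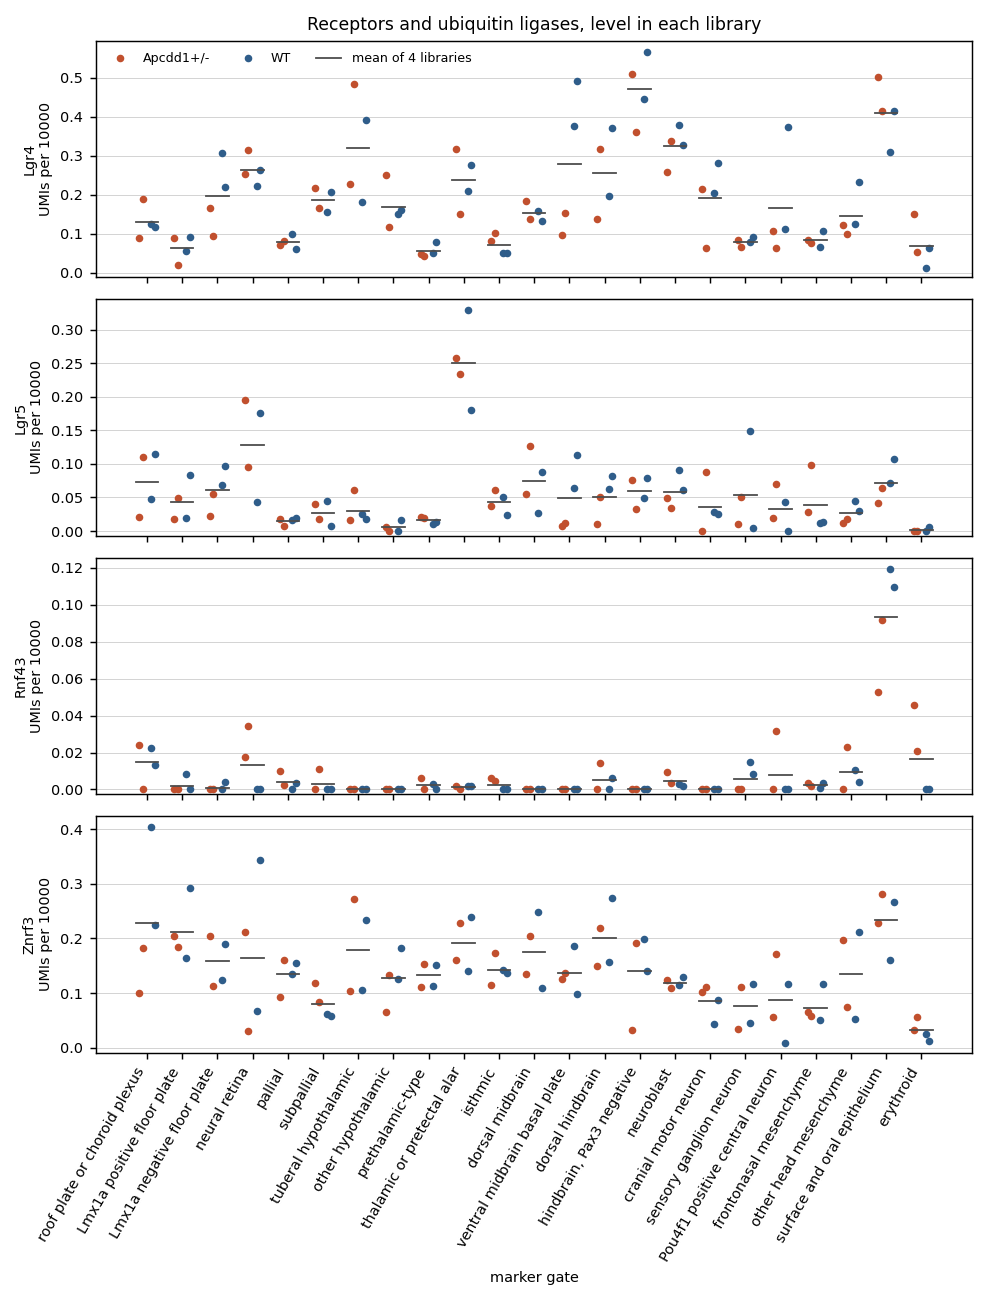
Level of Lgr4, Lgr5, Rnf43 and Znrf3 (rows, in UMIs per 10000, linear axes) in 23 marker gates, with 1 point per library (Apcdd1+/- left, WT right in each gate) and a line at the mean of 4 libraries. Lgr5 peaks in the thalamic or pretectal alar gate at 0.25, Rnf43 in epithelium at 0.0934, and Lgr4 and Znrf3 are spread over most gates.

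The thalamic or pretectal gate held both the ligand Rspo3 and the receptor Lgr5, and the receptors were lower in cells with a Rspo3 UMI. In its 375 cells with a Rspo3 UMI, Lgr5 averaged 0.061 ± 0.057, against 0.312 ± 0.093 in the 1121 cells without (SD, n = 4 libraries each). Lgr4 averaged 0.070 ± 0.018 in cells with a Rspo3 UMI and 0.295 ± 0.096 in cells without. Both receptors were lower beside Rspo3 in 4 of 4 libraries, although the cells with a Rspo3 UMI were the deeper ones, with medians of 12567 to 20066 UMIs, against 9759 to 15947 in cells without. The other ligands were higher beside Rspo3. Rspo1 averaged 0.389 ± 0.12 in cells with a Rspo3 UMI and 0.046 ± 0.012 in cells without, and Rspo2 0.717 ± 0.22 and 0.044 ± 0.020, each higher in 4 of 4 libraries. Znrf3 averaged 0.198 ± 0.066 in cells with a Rspo3 UMI and 0.191 ± 0.059 in cells without, a difference within the spread. Cells within a library are not replicates, so these are descriptions with no test.

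**Figure D4:**
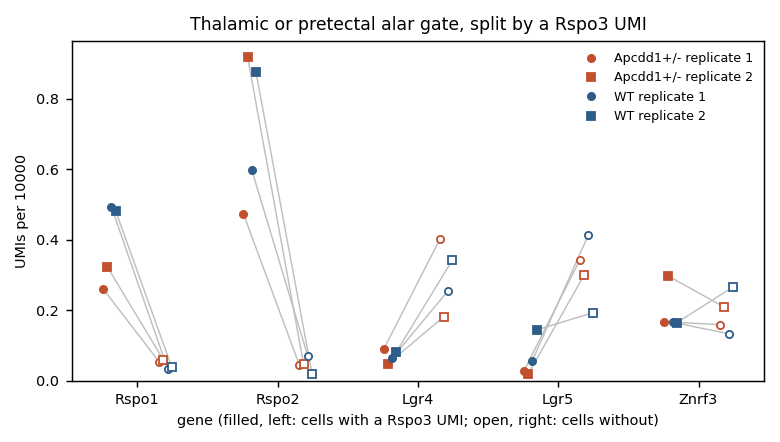
Level of 5 genes in UMIs per 10000 within the thalamic or pretectal alar gate, in cells with a Rspo3 UMI (filled, left) and in cells without (open, right), with lines joining the 2 values of a library. Rspo1 and Rspo2 are higher and Lgr4 and Lgr5 lower in cells with a Rspo3 UMI in all 4 libraries, and Znrf3 is not separated.

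Cells of that gate with Rspo3 but no Lgr5 and cells with Lgr5 but no Rspo3 differed in other genes, which were picked after the values above were seen and carry no test. Tcf7l2, a gate gene of the thalamus, averaged 2.44 ± 0.23 in cells with Rspo3 alone and 5.12 ± 0.26 in cells with Lgr5 alone, and Irx3 averaged 0.474 ± 0.14 and 1.99 ± 0.51 (SD, n = 4). Wnt8b went the other way, at 1.35 ± 0.37 and 0.037 ± 0.051, as did Wnt7b at 1.26 ± 0.35 and 0.111 ± 0.080, Barhl2 at 0.532 ± 0.12 and 0.111 ± 0.035, and Apcdd1 at 2.69 ± 0.86 and 1.23 ± 0.20. Axin2, a general readout of Wnt signalling, averaged 0.245 ± 0.040 and 0.280 ± 0.080, within the spread.

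Several Wnt ligands were also higher in the roof plate gate. Of 11 tested Wnt genes 7 were higher and 2 lower, with a median log2 difference of 2.65, against -0.02 over all genes. For this and the lists that follow, 9.03% of all genes were called higher in the gate and 9.27% lower. The 3 of largest difference were Wnt9a at 4.38 (SE 0.19), Wnt1 at 3.90 (SE 0.30) and Wnt2b at 3.43 (SE 0.75). Of the targets and feedback genes 4 of 10 were higher and 2 lower (median 0.68), the largest differences being Nkd2 at -2.19 (SE 0.54), Sp5 at 1.89 (SE 0.22) and Axin2 at 1.81 (SE 0.17). Of the Frizzled receptors and co-receptors 2 of 14 were higher and 3 lower (median -0.05), with Ror1 at 2.33 (SE 0.30), Fzd10 at 1.53 (SE 0.11) and Fzd9 at -1.49 (SE 0.55). Of the inhibitors 3 of 10 were higher and 2 lower (median 0.28), with Dkk2 at 1.87 (SE 0.23), Sfrp2 at -1.16 (SE 0.12) and Apcdd1 at 0.96 (SE 0.10). Of 11 intracellular and surface partners 4 were higher and 1 lower (median 0.16), with Wls, which carries Wnt proteins to the surface, at 2.03 (SE 0.08), Porcn, which adds their lipid, at 1.29 (SE 0.27), and Dvl1 at -0.68 (SE 0.22). All of these named genes passed edgeR at adjusted p of 0.045 or less.

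At the Lmx1a positive floor plate, where Rspo2 alone of the ligands was higher, 5 of 10 Wnt genes were higher and 4 lower (median 0.21, against -0.03 over all genes). There 7.67% of all genes were called higher and 8.1% lower. Wnt1 was at 2.86 (SE 0.37) and Wnt8b at 2.80 (SE 0.09), and Wnt3a was lower, at -3.81 (SE 0.99). Of 9 tested targets and feedback genes 4 were higher and 1 lower, with the inhibitor Dkk1 at 3.29 (SE 0.54), Sp5 at 2.19 (SE 0.22) and Apcdd1 at 1.94 (SE 0.09). Dkk2, a further inhibitor, had the largest value of its list at 6.38 (SE 0.11).

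In the thalamic or pretectal gate, where Lgr5 was highest, 4 of 10 Wnt genes were higher and 5 lower (median -0.08, against 0.01 over all genes). That fit called 3.66% of all genes higher and 4.29% lower. Targets and feedback genes split likewise, 4 higher and 2 lower of 10, with Apcdd1 at 1.19 (SE 0.05), Sp5 at 0.70 (SE 0.13) and Ccnd1, a cell cycle gene, at -0.57 (SE 0.02). In surface and oral epithelium, where Rnf43 had its highest mean, 8 of 17 Wnt genes were higher and 5 lower (median 0.09, against -0.04 over all genes), led by Wnt6 at 7.75 (SE 0.11), Wnt9b at 5.43 (SE 0.39) and Wnt10b at 5.17 (SE 0.55). There 2 of 11 targets and feedback genes were higher and 6 lower (median -0.82), where 22.3% of all genes were called higher and 25.6% lower, with Nkd2 at -2.12 (SE 0.21), Apcdd1 at -1.89 (SE 0.13) and Nkd1 at -1.84 (SE 0.16). Among inhibitors Kremen2, a receptor for Dkk proteins, had the largest difference at 7.63 (SE 0.27).

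Across the means of 30 gates, the ligands resembled each other among 6400 genes compared. Rspo3 was the gene most like Rspo2 (Pearson r = 0.821), followed by Tpbg (0.819), the gate gene Lmx1a (0.813), Folr1 (0.798) and Wnt8b (0.795). Galnt12 was most like both Rspo1 (0.874) and Rspo3 (0.827). Among the others like Rspo1 were Ntrk2, Rspo3 and Zic4 (0.792 to 0.759), and among those like Rspo3 were Rspo2, Cenpw and Rspo1 (0.821 to 0.783). The receptors had weaker likeness, with Aig1 (0.676), Meis1, Tenm2, Wipf2 and Faap20 for Lgr4 and Fto (0.595), Fign, Bdp1, Id2 and Greb1 for Lgr5. Znrf3 was most like Zfp503 (0.862), Mpp5, Pkp4, Anapc13 and Plekha7. The gates share their libraries and differ in cell number and depth, so these values rank genes and carry no test.

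Genotype was then compared within and across gates. Over all kept cells Rspo1 stood at 0.167 and 0.214 in Apcdd1+/- libraries, against 0.230 and 0.210 in WT libraries. Rspo3 stood at 0.447 and 0.361 in Apcdd1+/- and at 0.392 and 0.381 in WT, and Rspo2 at 0.125 and 0.134 in Apcdd1+/- and at 0.129 and 0.125 in WT. The genotypes overlapped for each of these genes, and so they did for Lgr4, at 0.197 and 0.191 in Apcdd1+/- and at 0.194 and 0.249 in WT, for Lgr5 and for Znrf3.

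By edgeR 0 of the 9 genes passed between genotypes, 0 had an unadjusted p under 0.05, and DESeq2 also called 0, where 0% of all 15966 genes were called by edgeR and 188 had an unadjusted p under 0.05. Without Apcdd1+/- replicate 1 edgeR called 109 of all genes and without Apcdd1+/- replicate 2 it called 222, with 0 of the 9 among them in either case. The log2 differences, Apcdd1+/- minus WT, were -0.21 for Rspo1 (95% interval -0.61 to 0.18), 0.04 for Rspo2 (-0.30 to 0.37), 0.21 for Rspo3 (-0.18 to 0.59), -0.17 for Lgr4 (-0.57 to 0.24), -0.09 for Lgr5 (-0.49 to 0.32) and 0.01 for Znrf3 (-0.34 to 0.36). The rare genes were bounded less closely, with 0.33 for Rspo4 (-0.76 to 1.42), -0.46 for Lgr6 (-1.40 to 0.49) and -0.00 for Rnf43 (-0.82 to 0.82). Leaving out 1 library turned the sign for Rspo1, Rspo3, Lgr4, Rnf43 and Znrf3. Of the 5 pathway lists, with 18, 15, 11, 12 and 11 genes tested, 0 genes passed by edgeR or DESeq2 and 0 had an unadjusted p under 0.05 by either tool.

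**Figure D5:**
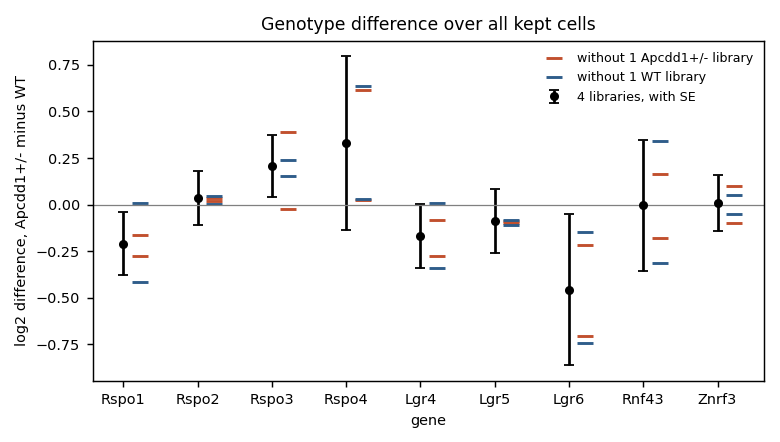
Log2 difference, Apcdd1+/- minus WT, of each of the 9 genes over all kept cells (black points with SE from edgeR on 4 libraries) and the same with 1 library left out (coloured dashes). No gene passed, and for Rspo1, Rspo3, Lgr4, Rnf43 and Znrf3 the dashes lie on both sides of 0.

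The share of roof plate cells lay lower in both Apcdd1+/- libraries, whereas that of hem cells overlapped between genotypes. Roof plate and hem cells together were 1.28% and 1.12% of cells in the Apcdd1+/- libraries, against 1.52% and 2.00% in the WT libraries. They held 14.5% and 16.2% of Rspo1 UMIs in Apcdd1+/-, against 21.3% and 23.2% in WT, and 15.5% and 14.0% of Rspo3 UMIs, against 21.4% and 22.1%. These summed shares did not overlap between genotypes. By gate, roof plate cells were 0.874% and 0.758% of cells in Apcdd1+/-, against 1.10% and 1.76% in WT. Hem cells were 0.410% and 0.361% in Apcdd1+/-, against 0.415% and 0.237% in WT, so they overlapped. None of these shares was tested. A cell enters these gates on as little as 1 UMI of each needed marker. The WT libraries were the deeper ones, and the part of depth in the shares was not tested. A difference over all cells therefore joins cell make-up and level per cell, which cannot be told apart in such sums.

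Within gates 99 pairs of a gene and a gate could be tested between genotypes, and 0 passed by edgeR or DESeq2, where 0.00224% of all gene and gate pairs passed by edgeR. By edgeR 10 pairs had an unadjusted p under 0.05, 3 of them among the 6 genes tested in neuroblasts, and by DESeq2 2. The share of all gene and gate pairs with such a p is not given here, so these counts are not read as a result. In the roof plate gate the log2 differences were -0.18 for Rspo1 (95% interval -0.66 to 0.30), -0.17 for Rspo2 (-0.73 to 0.39) and 0.21 for Rspo3 (-0.18 to 0.61). In the thalamic or pretectal gate Lgr5 differed by -0.14 (-0.76 to 0.49), and in epithelium Rnf43 differed by -0.41 (-1.28 to 0.46) and Znrf3 by 0.20 (-0.38 to 0.79). A test of whether the genotype difference itself changed between a gate and the other cells passed in 1 of 192 pairs, where 0.0382% of all pairs passed. That pair was Rspo2 in the dorsal midbrain gate, with a log2 interaction of 3.73 (SE 0.84, edgeR adjusted p = 0.021), and it rested on 21 and 3 UMIs in the Apcdd1+/- libraries, against 2 and 0 in the WT libraries.

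GENCODE vM21 on GRCm38, which is mm10, places Rspo1 on chromosome 4 (124986430 to 125009099, plus strand), Rspo2 on 15 (43020794 to 43170826, minus) and Rspo3 on 10 (29452416 to 29535867, minus). Rspo4 lies on chromosome 2 (151842927 to 151874668, plus), as does Lgr4 (109917647 to 110014257, plus). Lgr5 lies on chromosome 10 (115450311 to 115587780, minus) and Lgr6 on chromosome 1 (134983301 to 135105276, minus). Both ligases lie on chromosome 11, Rnf43 at 87662722 to 87735539 (plus) and Znrf3 at 5276324 to 5444847 (minus).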

How the data were processed

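Single-cell RNA libraries were made with a droplet kit (DNBelab C) and sequenced on MGISEQ-2000, per the labels' protocols. The deposited values are raw UMI counts per gene and cell, written by PISA 0.12 per the file headers, and the submitters' processing notes name the mm10 build and Scanpy 1.9.1. The aligner, with its settings: not given in the sources used here. A gene missing from a library's matrix was taken as 0. Cells with at least 500 genes and under 10% mitochondrial UMIs were kept. No doublet caller was run; cells passing for a second broad class without a clear lead (0.974% to 1.76% of cells per library) were left out of the classes, and cells over 2 times the median UMI count were left out as an alternative.

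Counts were summed per library and gate and tested with edgeR 4.0.16 (quasi-likelihood, TMM, filterByExpr), with library as a block for gate against other cells, at adjusted p under 0.05. DESeq2 1.42.0 was an alternative. Between genotypes only 2 libraries stand against 2. In counts simulated from the model of the fit, changes were placed only in the more abundant genes. The fit recovered 85% of 2-fold changes between genotypes over all kept cells and 86% in the roof plate gate. It also called 17 and 8 unchanged genes. Lgr5, Lgr6, Rnf43 and Rspo4 were too rare to be covered between genotypes, and genotype within gates was not simulated. Shares of cells used cells thinned to 3000 UMIs. Likeness used log2(UMIs per 10000 + 0.1). The 5 most alike genes were taken for the 6 members with a gate mean of at least 0.1, not for Rspo4, Lgr6 and Rnf43, and 1 gene is not reported here. The barcode list of Apcdd1+/- replicate 1 names 3994 of its 9735 cells, so bead barcodes were compared over listed cells. Replicate numbers were not taken to pair libraries. Genes of the pathway lists were named as the 3 past the threshold with the largest absolute log2 difference in a fit. The genes, gates, lists and tests were chosen with earlier results of these data known. Floors (3 UMIs) cover counting error only. The 95% intervals of log2 differences rest on the error of the edgeR fit, which is partly shared across genes. Promoter and protein sequences were not used here.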

Additional observations from a re-analysis of the deposited data

Results flagged for a closer look

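Rspo2 in the dorsal midbrain gate was the 1 result where the difference between Apcdd1+/- and WT was itself different in a gate and in the other progenitors (log2 interaction 3.73, SE 0.84, edgeR adjusted p = 0.021). It had 21 UMIs in 6 of 177 cells and 3 UMIs in 2 of 73 cells of the Apcdd1+/- libraries, against 2 UMIs in 2 of 115 cells and 0 UMIs in 47 cells of the WT libraries. The most UMIs in 1 cell were 6. Without Apcdd1+/- replicate 1 the interaction was 2.44 (adjusted p = 0.96), without WT replicate 2 it was 2.97 (adjusted p = 0.89), without WT replicate 1 it was 10.4 (adjusted p = 0.056), and with stricter gates it was 0.85 (adjusted p = 1). Without cells over 2 times the median UMI count it was 3.53 (adjusted p = 0.12).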

How the results depend on the processing

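Of the 120 gene and gate pairs called, 0 changed direction under the alternatives run. Some missed the threshold, 7 or 8 of the 120 with 1 library left out, 14 with DESeq2 and 11 without the library block. The counts that follow include pairs newly called in a setting, so they can hide such losses. The calls numbered 28 higher and 92 lower, 25 to 28 and 87 to 90 with 1 library left out, and 23 and 83 with DESeq2. They numbered 25 and 85 without the library block, and 32 and 105 with the gates of at least 5 cells added. Genotype calls of the 9 genes stayed at 0 in every setting run. Over all genes and all kept cells the 0 genotype calls became 3 without the filter, 3 with DESeq2 and 5 with the replicate number as a block, and 0 to 222 with 1 library left out (109 without Apcdd1+/- replicate 1, 222 without Apcdd1+/- replicate 2). Same-numbered libraries deviated together with r = 0.183 over all cells, but 2 pairs do not settle a pairing. The 1 interaction call became 2 without the filter, 2 with stricter gates, 0 without cells over 2 times the median UMIs, and 1 to 4 with 1 library left out, all chosen after the data were seen.

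Signs turned in genotype differences that had not passed. With 1 library left out the ranges over all cells were -0.42 to 0.0066 for Rspo1, -0.025 to 0.39 for Rspo3, -0.34 to 0.0079 for Lgr4, -0.31 to 0.34 for Rnf43, -0.10 to 0.10 for Znrf3; within the gate of their highest level they were -0.56 to 0.17 for Rspo1 (roof plate or choroid plexus), -0.65 to 0.28 for Rspo2 (roof plate or choroid plexus), -0.60 to 0.14 for Lgr4 (hindbrain, Pax3 negative), -0.55 to 0.51 for Lgr5 (thalamic or pretectal alar). Rnf43 became 0.024 with the replicate block and 0.17 without cells over 2 times the median UMIs, and Znrf3 -0.0083 with all deposited barcodes. The cause was not tested. Levels moved by more than 1 SD in 15 of 252 gene and gate pairs with stricter gates, 11 with summed UMIs, 2 with all barcodes and 1 without cells over 2 times the median UMIs.

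Depth limits the rare genes: Rspo4, Lgr6 and Rnf43 had 71, 115 and 206 UMIs in all. With 2 libraries a genotype, the intervals leave changes of the sizes given undetected. In the gates 1 UMI of a marker counts as present, so cells that missed a needed marker count among the other cells.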
